A study of Mus musculus with 141 samples.

Results

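Toll-like receptors are membrane proteins of innate immunity that bind molecules of microbes and of damaged cells. They fall into receptors of the cell surface, which bind lipids and proteins of bacteria, and receptors of the endosome, which bind nucleic acids or, for mouse Tlr12, a protein of protozoan parasites. Nearly all of them signal through the adaptor Myd88 to NF-kB; Tlr3 signals through Ticam1 alone, and Tlr4 uses both. Macrophages, dendritic cells, neutrophils and B cells are their best known sites of expression, and some are also made by epithelial, endothelial and tubule cells. The members were taken by symbol: Tlr1, Tlr2, Tlr3, Tlr4, Tlr5, Tlr6, Tlr7, Tlr8, Tlr9 and Tlr12, which are 10 of the 24423 genes in the files, and all 10 were found.

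The samples were the liver, lung and kidney of 1 male mouse from each of 47 Collaborative Cross (CC) strains, a panel of recombinant inbred lines. The mice were 8 to 12 weeks old and had all spent 6 hours a day in chambers with clean air, so no treatment was compared. With 47 libraries per tissue and 1 mouse per strain, the spread between strains holds genetic, individual and technical differences together. Because whole organs were ground up, fewer cells of a type and less RNA per cell cannot be told apart.

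Library totals ran from 1738046 to 42158454 counts, and the ribosomal precursor Rn45s took a median share of 18.0% of the counts of a lung, 25.4% of a kidney and 34.9% of a liver library. Levels are therefore given as counts scaled to the library size and then by TMM factors, which are less moved by a few abundant RNAs; they are called CPM here. The marker lists fitted the labels: hepatocyte markers summed to a median of 97200 CPM in liver against 1900 in kidney and 72.9 in lung, surfactant and other lung epithelial markers to 10700 in lung against 26.8 in liver and 9.94 in kidney, and tubule markers to 25800 in kidney against 211 in lung and 37.9 in liver. Some libraries stood apart. In the CC015 lung 71.7% of counts were Rn45s. Over 79 genes whose strain pattern was shared by all tissues, members left out, the best match between organs was the same strain for 46 of 47 strains (liver and kidney, lung and kidney) and for 44 (liver and lung). These genes were picked in the same libraries with a minimum r of 0.6, which favours a match with the own strain, so only the mismatches are informative. The liver labelled CC032 matched the CC012 lung (r = 0.682) better than its own (r = 0.131), and the lung labelled CC042 matched neither the liver (r = 0.052) nor the kidney (r = 0.099) of that strain. The CC030 liver matched the CC004 lung (r = 0.381) slightly better than its own (r = 0.352), and CC030 was not left out in any alternative. Leaving out CC032 and CC042, or CC015, moved no tissue call of a member.

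The sequences bear on what could be counted. In Build 37 of the mouse genome Tlr1 (chromosome 5, 65316050 to 65324000) and Tlr6 (chromosome 5, 65344345 to 65351287) are neighbours on the reverse strand, 20344 bases apart, and Tlr7 (chromosome X, 163742861 to 163768490) and Tlr8 (chromosome X, 163680626 to 163702261) lie 40599 bases apart. Reads were 50 bases long and only those aligning to a single place were counted. Of all windows of that length in the Tlr1 transcript, 17.4% are also in Tlr6, and 17.8% of those of Tlr6 are in Tlr1. No other member shared a window with another gene among the protein-coding transcripts searched, with the longest taken for each member. For Tlr4 and Tlr8 these held 4077 and 3431 bases, against at least 7875 and 4678 in the deposited lengths, so the rest of these transcripts was not searched. The longest identical coding stretch, 229 bases at positions 1468 to 1696 of the Tlr1 coding sequence and 1507 to 1735 of that of Tlr6, is printed because no read inside it can be given to either gene:
Tlr1 and Tlr6 shared stretch: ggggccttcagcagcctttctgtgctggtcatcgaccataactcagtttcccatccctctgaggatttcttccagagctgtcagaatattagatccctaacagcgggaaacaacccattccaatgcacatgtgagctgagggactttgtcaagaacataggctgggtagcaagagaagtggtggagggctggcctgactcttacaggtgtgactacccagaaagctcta

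A second feature of the counting touched Tlr1, Tlr7 and Tlr8. The files name 2 transcripts for Tlr1, 5 for Tlr7 and 3 for Tlr8, and 1 for each of the other members. Reads shared by transcripts of the same gene are not unique on a transcriptome, and over all genes 55.5% of those with 1 named transcript reached the filter of the tissue comparison against 32.2% of those with more. Tlr1, Tlr7 and Tlr8 had more than 1 CPM, before scaling, in 12, 1 and 7 libraries of the series. Their values are given as counted, and whether they follow the genes' RNA was not tested.

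The promoters of Tlr2, Tlr5 and Tlr12, which had different organ patterns, are printed next, each from 250 bases before to 50 bases after the start, from RefSeq on GRCm38.p6. Capitals mark the ETS core (GGAAGT, either strand) and NF-kB motifs. The Tlr2 window lies at chr3:83841559-83841858 (reverse strand), that of Tlr5 at chr1:182954538-182954837 (forward strand) and that of Tlr12 at chr4:128618570-128618869 (reverse strand):
Tlr2 promoter: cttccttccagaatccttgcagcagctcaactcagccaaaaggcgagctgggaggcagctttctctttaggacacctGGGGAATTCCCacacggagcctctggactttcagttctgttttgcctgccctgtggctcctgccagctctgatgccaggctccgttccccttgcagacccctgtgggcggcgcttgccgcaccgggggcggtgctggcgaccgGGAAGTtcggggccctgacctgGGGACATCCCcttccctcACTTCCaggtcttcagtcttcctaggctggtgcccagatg
Tlr5 promoter: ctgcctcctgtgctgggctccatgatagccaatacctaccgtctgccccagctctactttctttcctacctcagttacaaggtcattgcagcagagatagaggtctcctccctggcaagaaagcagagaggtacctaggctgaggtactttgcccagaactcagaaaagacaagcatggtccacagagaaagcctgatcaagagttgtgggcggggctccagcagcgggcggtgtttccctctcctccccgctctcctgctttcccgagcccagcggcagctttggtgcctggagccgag
Tlr12 promoter: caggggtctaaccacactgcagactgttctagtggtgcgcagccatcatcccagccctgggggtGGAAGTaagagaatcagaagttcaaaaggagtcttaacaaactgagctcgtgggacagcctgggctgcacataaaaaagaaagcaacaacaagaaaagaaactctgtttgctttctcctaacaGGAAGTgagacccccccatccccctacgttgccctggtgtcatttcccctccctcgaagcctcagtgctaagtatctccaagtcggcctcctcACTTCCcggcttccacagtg
The ETS core occurred 2 times in the Tlr2 window, 3 times in that of Tlr12 and 0 times in that of Tlr5, and 23.8% of 32851 promoters hold at least 1. NF-kB motifs, found in 8.46% of promoters, were in the Tlr2 window but not in those of Tlr5 or Tlr12.

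The first question was in which organ each receptor was most abundant. Tlr2, Tlr4, Tlr9 and, less steeply, Tlr3 were highest in lung, Tlr5 and Tlr6 were high in lung and liver and low in kidney, and Tlr12 was highest in kidney. The plot of levels by tissue shows the 47 strains of each.

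**Figure D1:**
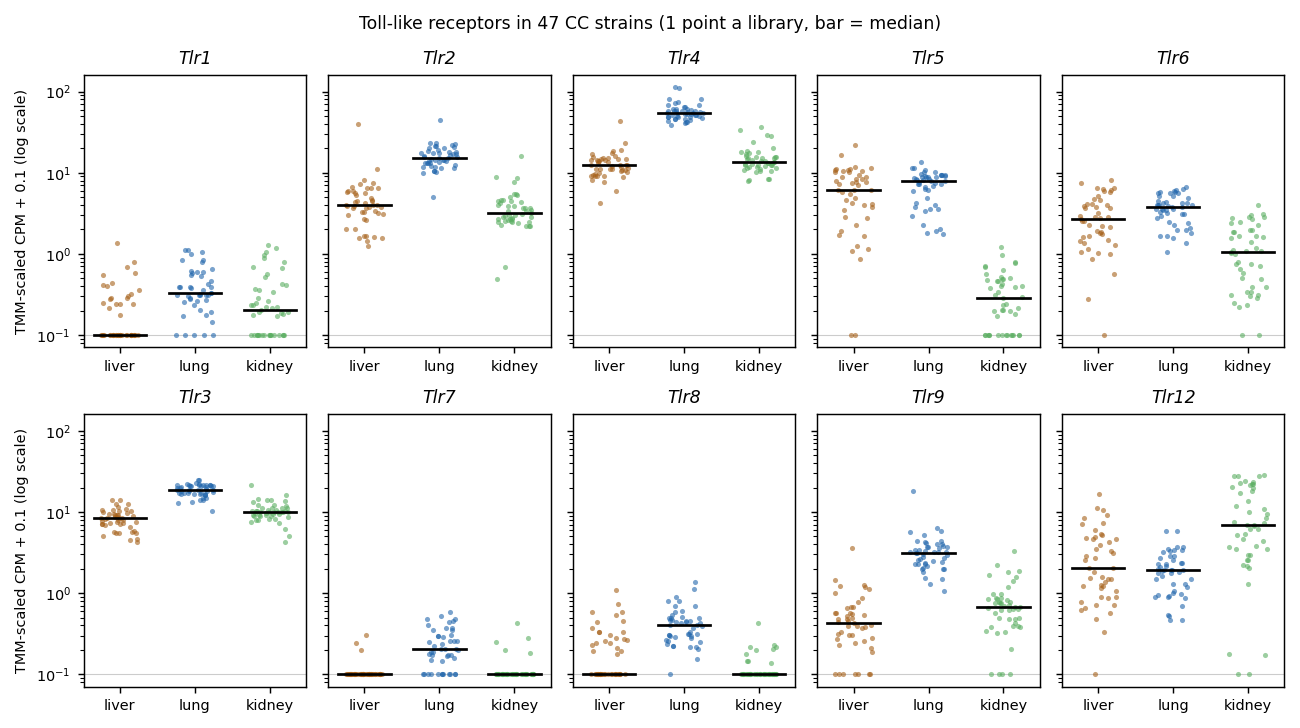
Level of each receptor in every library (47 per tissue), as TMM-scaled CPM plus 0.1 on a log axis, with a bar at the median. Surface receptors are in the upper row and endosomal receptors in the lower; the grey line marks 0 CPM. The lung points of Tlr4 lie above all its kidney points, and the kidney points of Tlr5 lie below all its lung points.

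Among the surface receptors, Tlr2, which pairs with Tlr1 or Tlr6 to bind bacterial lipopeptides, ranged in lung from 4.97 CPM in CC015 through a median of 15.0 to 44.7 in CC040. In liver it ran from 1.16 through 3.86 to 39.3, and in kidney from 0.386 through 3.05 to 16.2. The lung value was the highest of the 3 organs in 45 of 47 mice, although the ranges overlapped. Tlr2 was 3.60-fold higher in lung than in liver (log2 fold change liver minus lung -1.85 ± 0.11 SE, q = 8e-30) and 4.44-fold higher in lung than in kidney (2.15 ± 0.11, q = 1.2e-34). Liver and kidney differed by 0.30 ± 0.11 (q = 0.01), under the fold minimum, and this small difference turned to -0.61 under total-count scaling.

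Tlr4 is the receptor of lipopolysaccharide. Its lung values ran from 39.2 through 53.9 to 114 CPM, its liver values from 4.17 through 12.3 to 43.3, and its kidney values from 7.71 through 13.4 to 36.3. All 47 mice had more in lung than in either other organ, and the lung and kidney ranges did not overlap. The fold changes were 4.55 against liver (-2.19 ± 0.07, q = 7.2e-54) and 3.88 against kidney (1.95 ± 0.07, q = 9.5e-50).

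Tlr5, the flagellin receptor, had a different distribution. Lung ranged from 1.64 through 7.84 to 13.3 CPM and liver from 0 through 6.07 to 21.6. In kidney the median library held 1 count, 14 of 47 libraries held 0 counts and the highest value was 1.11 CPM. Kidney was below lung in all 47 mice, with no overlap of the ranges, and below liver in 45. The fitted folds were 26.8 for lung over kidney (4.75 ± 0.14, q = 4.4e-56) and 23.5 for liver over kidney (4.55 ± 0.14, q = 2.3e-54); with so few kidney counts their size depended on the scale, and on log2(TPM + 1) the differences were 3.02 and 1.62. Liver and lung did not pass the test (-0.19 ± 0.12, q = 0.12), but under total-count scaling lung was higher by 1.68 (log2).

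Tlr6, the partner of Tlr2 for diacylated lipopeptides, ran in lung from 0.953 through 3.68 to 6.59 CPM, in liver from 0 through 2.61 to 8.00 and in kidney from 0 through 0.945 to 3.91. The median kidney held 7 counts, and 15 of 47 kidneys held 3 or fewer. Lung exceeded kidney in all 47 mice and liver exceeded kidney in 42. It was 3.21-fold higher in lung than in kidney (1.68 ± 0.17, q = 2.1e-16) and 2.59-fold higher in liver than in kidney (1.37 ± 0.17, q = 2.5e-12), the latter falling to 0.55 and below the fold minimum under total-count scaling. Liver against lung gave -0.31 ± 0.17 (q = 0.068), not past the fold minimum. This depended on the scale: it was -1.75 under total-count scaling, -1.37 on log2(TPM + 1) and -1.92 on log2(TPM + 0.1), each past the minimum.

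Tlr1, the partner of Tlr2 for triacylated lipopeptides, had medians of 0 CPM in liver, 0.230 in lung and 0.105 in kidney, with highest values of 1.25, 1.03 and 1.19. More than 3 counts were reached in 3 livers, 24 lungs and 10 kidneys. In a sign-flip permutation test over 47 mice (two-sided, log2 of CPM + 0.5) lung exceeded liver by a mean of 0.37 (higher in 34 mice, lower in 9, p = 8e-05), while liver against kidney gave p = 0.124 and lung against kidney p = 0.058.

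Of the endosomal receptors, Tlr3, which binds double-stranded RNA, was the most even across organs and strains. It ran from 10.1 through 18.7 to 24.9 CPM in lung, from 4.19 through 8.25 to 14.0 in liver and from 4.15 through 9.96 to 21.7 in kidney. Lung was above liver in 47 mice and above kidney in 45. The lung level was 2.27-fold that of liver (-1.18 ± 0.06, q = 1.2e-35), and 1.85-fold that of kidney (0.89 ± 0.06, q = 1e-26), the latter just under the fold minimum; with DESeq2 size factors it was 1.09 and past it.

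Tlr9, the receptor of unmethylated CpG DNA, ran in lung from 0.967 through 3.05 to 18.0 CPM, the top value being CC040. Liver had a median of 0.326 CPM and kidney of 0.579, with highest values of 3.50 and 3.25, and 34 livers and 17 kidneys held 3 counts or fewer. Lung exceeded each of the others in 46 of 47 mice. Tlr9 was 6.59-fold higher in lung than in liver (-2.72 ± 0.16, q = 1e-30) and 4.79-fold higher than in kidney (2.26 ± 0.16, q = 2.1e-25). The median liver held 2 counts and the median kidney 6, and the size depended on the scale: liver minus lung was -2.03 on log2(TPM + 1) and -4.15 under total-count scaling.

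Tlr12, which binds parasite profilin, was the only tested member that was highest in kidney, where it ran from 0 through 6.73 to 28.9 CPM. Liver ran from 0 through 1.92 to 16.5 and lung from 0.362 through 1.82 to 5.71. Kidney was the highest organ in 39 mice, and the ranges overlapped widely. Tlr12 was 4.63-fold higher in kidney than in lung (-2.21 ± 0.12, q = 1.6e-32) and 3.05-fold higher than in liver (-1.61 ± 0.12, q = 3.8e-23). Liver against lung (0.60 ± 0.12, q = 5.1e-06) stayed under the fold minimum and turned to -0.81 under total-count scaling.

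Tlr7 and Tlr8, neighbouring receptors of single-stranded RNA, were near 0 throughout. Tlr7 had 96 counts over 47 lungs, 3 over the livers and 6 over the kidneys, and its highest value was 0.494 CPM. Tlr8 had 230, 47 and 12 counts, with a highest value of 1.28 CPM in lung. The sign-flip test placed lung above liver and above kidney for both genes (p = 1e-05 each, the smallest the permutations can give); Tlr8 was above in 46 mice and below in 0 for lung against kidney. Liver exceeded kidney for Tlr8 (p = 9e-05), and for Tlr7 40 of 47 mice had the same value, 0, in liver and kidney.

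In all, 4 members were higher in lung than in liver and 0 were higher in liver, against 31.2% and 23.7% of 12127 genes tested. For lung against kidney 5 were higher in lung (24.6% of all genes) and 1 in kidney (21.7%), and for liver against kidney 2 were higher in liver (14.7%) and 1 in kidney (22.0%). Calls used a q of 0.1 or less and a log2 fold change of at least 1 in either direction; 7 of the 10 members passed the count filter, which Tlr5 did through liver and lung and not through kidney, and Tlr9 through lung (more than 1 CPM in 46 lungs, 2 livers and 12 kidneys), so that a lung excess of Tlr9 was favoured by the filter. The medians of the 7 were -1.18, 1.95 and -0.23 (log2) for liver minus lung, lung minus kidney and liver minus kidney, and those of all genes -0.07, -0.02 and -0.07. Total-count scaling moved the median of all genes by over 1 for liver minus lung, to -1.43, and with it all 7 toward lung, as the plot of tissue differences shows.

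**Figure D2:**
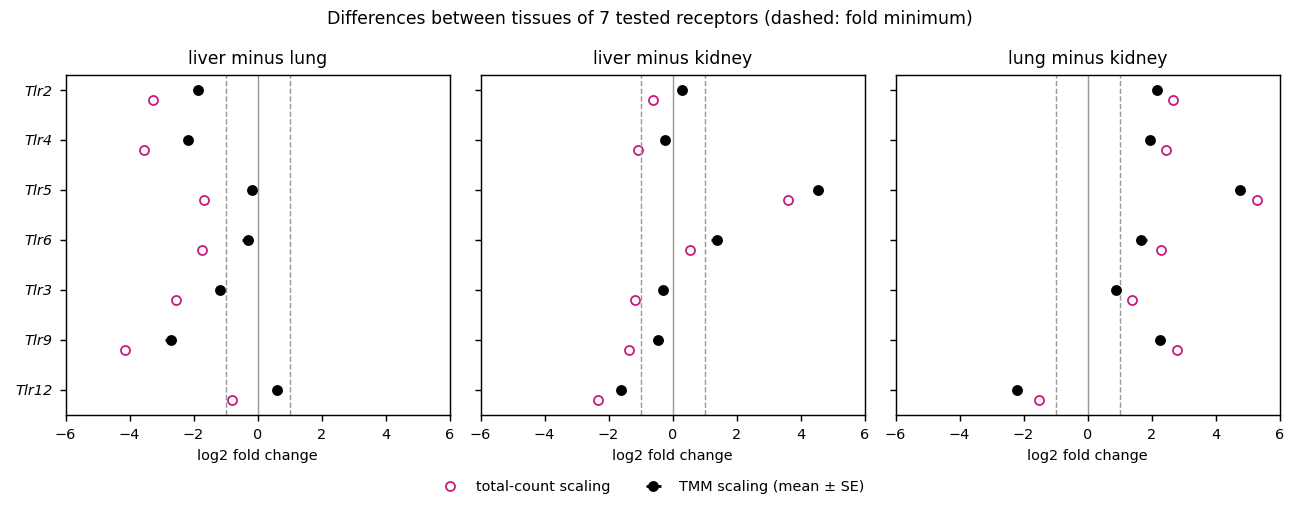
Difference between organs of the 7 tested receptors, as log2 fold change of the first organ minus the second, with filled points and SE bars for TMM scaling (47 mice) and open points for scaling by total counts; dashed lines mark the fold minimum of 1. The open points lie to the left of the filled ones wherever liver is the first organ, and Tlr5 stands at 4.55 and 4.75 against kidney.

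Markers of leukocytes also differed between the organs: shared macrophage markers summed to medians of 1830 CPM in lung, 537 in liver and 107 in kidney, B cell markers to 42.6, 2.42 and 0.922, and dendritic cell markers to 55.3, 5.27 and 6.79. All 9 macrophage markers had a median of more than 3 counts in every organ, whereas of the 7 B cell markers 6 did in lung, 1 in liver and 0 in kidney, with Cd79b and Fcer2a at a median of 0 in liver and kidney. Their part in the receptors' levels was not tested.

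Within an organ, levels of different receptors were compared per length, as the length-corrected TPM. In lung the order of medians was Tlr4 (32.6 TPM), Tlr2 (25.6), Tlr3 (20.1), Tlr5 (10.5), Tlr6 (5.57), Tlr9 (3.58), Tlr12 (2.40), Tlr1 (0.370), Tlr8 (0.230) and Tlr7 (0.120), and each neighbour differed from the next (sign-flip permutation test on log2(TPM + 0.1), largest p = 0.031). In liver Tlr5 (3.26), Tlr3 (2.98), Tlr2 (2.37), Tlr4 (2.34), Tlr6 (1.54) and Tlr12 (1.07) came close together, and Tlr5 and Tlr3 (p = 0.156), Tlr2 and Tlr4 (p = 0.166) and Tlr6 and Tlr12 (p = 0.138) did not differ beyond their spread. In kidney Tlr3 (7.19), Tlr12 (5.94) and Tlr4 (5.47) led and did not differ from each other in turn (p = 0.248 and p = 0.93). Of 27 neighbouring pairs 7 did not differ at p under 0.05, unadjusted, and the same 7 did not under any alternative run.

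The second question was how far the receptors varied from strain to strain. Variation beyond counting noise, as a coefficient of variation over the 47 strains, was 0.877 for Tlr12 in kidney, above that of 96.3% of 11285 genes there, and 1.01 in liver and 0.594 in lung, where 96.3% and 92.4% of genes had less. Tlr3 was the steadiest receptor, at 0.152 in lung, 0.230 in liver and 0.256 in kidney, against medians over all genes of 0.214, 0.240 and 0.219. Tlr5 reached 0.657 in liver and 0.400 in lung, Tlr6 0.617, 0.372 and 0.772 in liver, lung and kidney, and Tlr9 0.719 in lung. The lung value of Tlr9 rested on CC040, whose 18.0 CPM was followed by 6.17 in the next strain, and was 0.347 without it. The liver value of Tlr2, 1.11, rested on CC016, whose 39.3 CPM was followed by 11.1, and was 0.445 without it.

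In kidney Tlr12 had the largest coefficient of the 6 members with enough counts. CC001, CC059, CC005 and CC011 had the 4 highest kidney values, and in CC012, CC021, CC042 and CC053 the kidney held 1, 0, 0 and 2 counts, which is no more than the 3 counts taken as the limit of detection. Of these 4, CC012, CC021 and CC053 also had low lung values, 0.370, 0.594 and 0.362 CPM, against a lung median of 1.82. CC042 had 3.24 CPM in lung, from the library that did not match its strain, and 0.229 in liver. The plot of Tlr12 by strain shows kidney, liver and lung of the same mice.

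**Figure D3:**
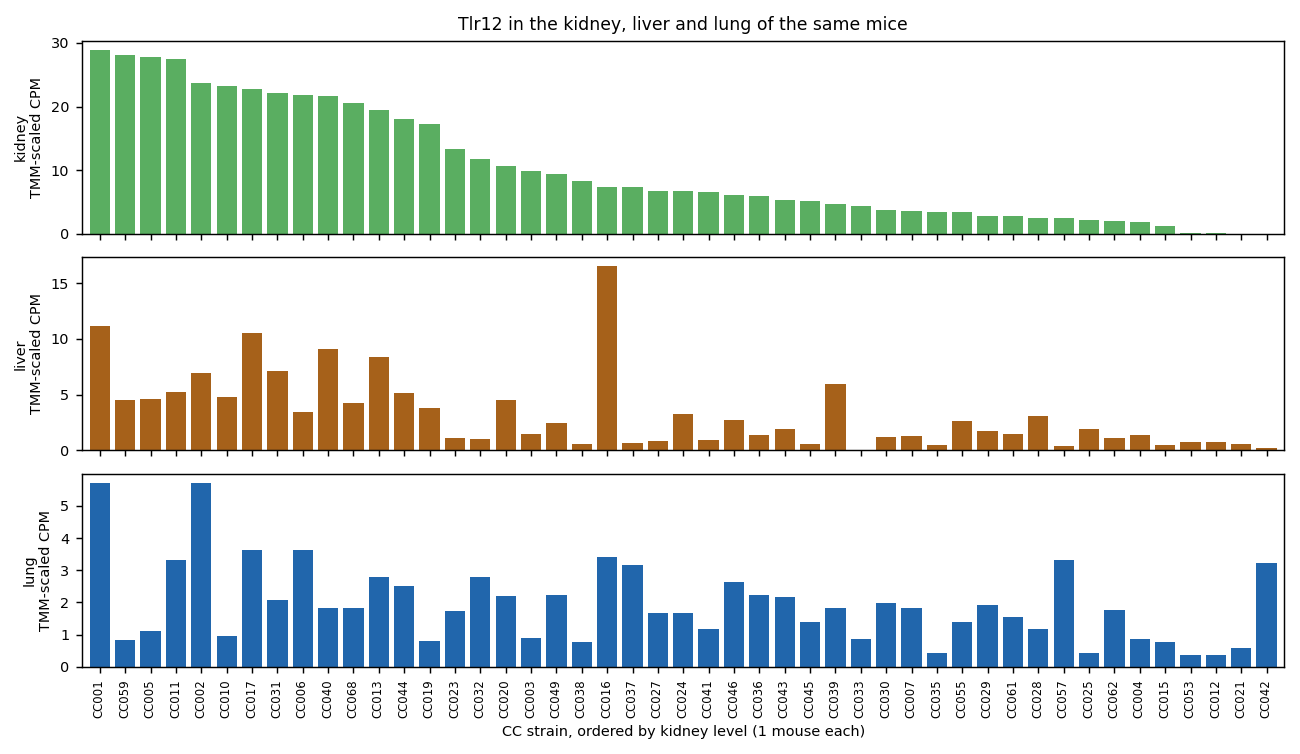
Tlr12 in kidney, liver and lung (TMM-scaled CPM, separate linear axes from 0) of 47 CC strains, 1 mouse each, ordered by the kidney level. Kidney falls from 28.9 CPM in CC001 to 0 in CC021 and CC042; liver is tallest in CC016, at 16.5, and lung in CC001 and CC002.

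The next question was whether a strain with a high level in 1 organ also had it in another. Values in 2 organs of the same mice rose and fell together for Tlr5, Tlr6 and Tlr12, in all 7 organ pairs in which these had enough counts (median over 3 in both organs). Correlations were computed on rank-based normal scores with 100000 permutations and adjusted over all genes and pairs. For Tlr12 r was 0.680 between liver and kidney (rho = 0.704, permutation p = 1e-05 for each, q = 0.000538), 0.471 between liver and lung (rho = 0.441, permutation p = 0.00071 and 0.00194, q = 0.0143) and 0.471 between lung and kidney (rho = 0.425, permutation p = 0.0008 and 0.00312, q = 0.0122). Without CC032 and CC042 the last 2 were 0.555 and 0.553.

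For Tlr6 r was 0.662 between liver and kidney (rho = 0.670, permutation p = 1e-05 for each, q = 0.000538), 0.643 between lung and kidney (rho = 0.656, permutation p = 1e-05 for each, q = 0.000894) and 0.522 between liver and lung (rho = 0.519, permutation p = 0.00017 and 0.00019, q = 0.00422). For Tlr5 r between liver and lung was 0.688 (rho = 0.722, permutation p = 1e-05 for each, q = 0.000538). With the 2 strains farthest from the median left out, r stayed between 0.364 and 0.675 for the 7 pairs. None of the 7 lost its call without CC032 and CC042, without CC015, or without CC016, CC020 and CC040. The kidney pairs of Tlr6 were not tested among genes with a median count over 10, since its median kidney held 7 counts. Under total-count scaling 2 were called, and r for Tlr6 between liver and lung was 0.068.

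Tlr2, Tlr3, Tlr4 and Tlr9 did not pass in any of their 10 organ pairs on normal scores, with r from -0.121 for Tlr2 between lung and kidney to 0.345 for Tlr4 between lung and kidney (rho = 0.360, permutation p = 0.0183 and 0.0141, q = 0.105). The latter was 0.425 (q = 0.0339) without CC032 and CC042, passed at the edge on residuals on depth (q = 0.0963) and among genes with a median count over 10 (q = 0.0994), and was 0.438 (q = 0.0255) on log2(CPM + 1), where Tlr3 between lung and kidney also passed (r = 0.360, q = 0.0782). Over all genes 19.7% passed between liver and kidney, 13.7% between liver and lung and 16.3% between lung and kidney, with median r of 0.175, 0.129 and 0.144. Whether the r of these receptors differed from that of Tlr5, Tlr6 and Tlr12 was not tested.

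**Figure D4:**
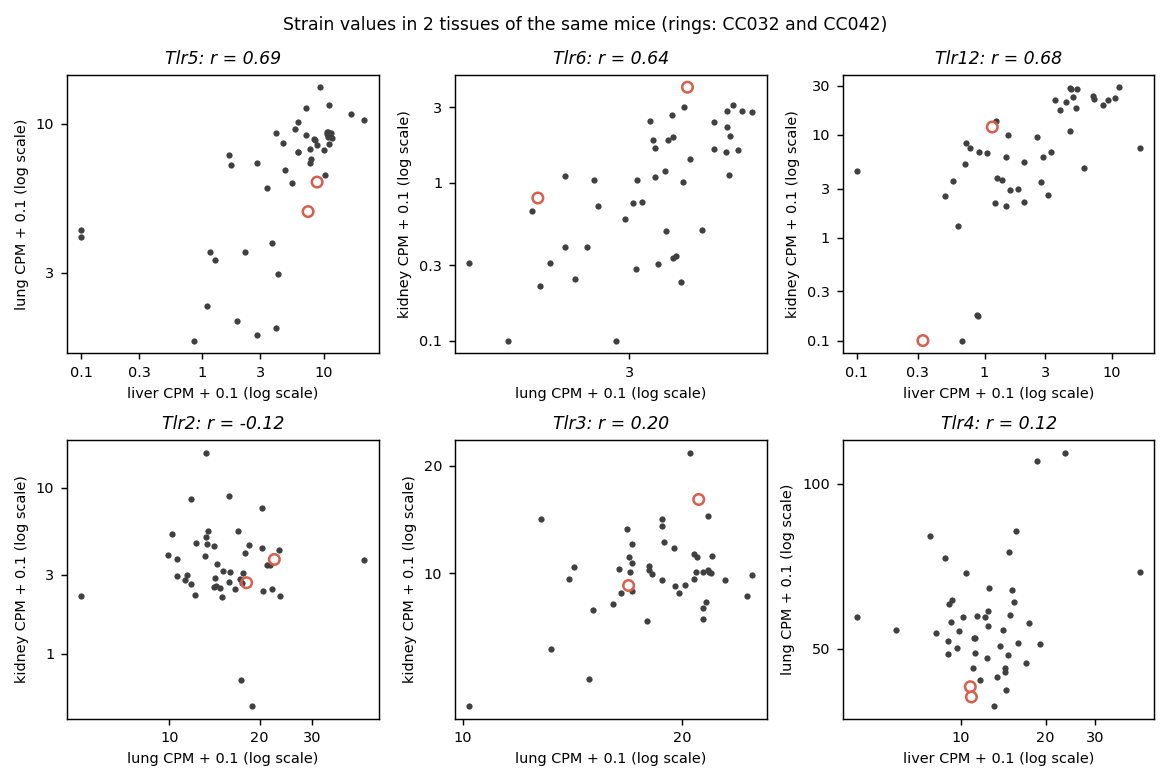
Each point is 1 CC strain (47 in each panel), with its level in 1 organ against another (TMM-scaled CPM plus 0.1, log axes); rings mark CC032 and CC042. In the upper row Tlr5, Tlr6 and Tlr12 rise together in both organs (r = 0.69, 0.64 and 0.68); in the lower row Tlr2, Tlr3 and Tlr4 do not pass the test (r = -0.12, 0.20 and 0.12).

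Within an organ no pair of receptors passed the test across strains. Of 15 pairs in liver, 21 in lung and 15 in kidney, 0 reached a q of 0.1, while 5, 2 and 7 had an unadjusted permutation p under 0.05. The highest r was 0.457, for Tlr2 and Tlr9 in kidney (rho = 0.411, permutation p = 0.00101 and 0.00414, q = 0.135, and r = 0.308 without the 2 strains farthest from the median), and the medians were 0.198 in liver, 0.058 in lung and 0.276 in kidney. Tlr1, Tlr7 and Tlr8 were not entered, because the genes correlated had also to pass the count filter of the tissue comparison; Tlr1 and Tlr8 had a median of 4 counts in lung.

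Instead, several receptors followed marker genes of leukocytes. Of 228 combinations of a receptor, an organ and a summed marker list, 17 passed (q of 0.1 or less over all genes), all with r above 0 and all with leukocyte lists. The share of all genes that passed ran from 0.147% for the endothelial list in liver to 6.09% for the tubule list in kidney. In lung Tlr9 followed the B cell markers (r = 0.624, rho = 0.623, permutation p = 1e-05 for each, q = 0.00396; 2.16% of genes passed), and Tlr2 followed the dendritic cell markers (r = 0.645, rho = 0.570, permutation p = 1e-05 and 2e-05, q = 0.00396; 1.68% of genes). In liver Tlr4 followed the Kupffer cell markers, those of the resident liver macrophage (r = 0.589, rho = 0.586, permutation p = 2e-05 and 1e-05, q = 0.0153; 1.52% of genes), and Tlr2 the shared macrophage markers (r = 0.558, rho = 0.486, permutation p = 5e-05 and 0.00059, q = 0.0317; 1.23% of genes). In kidney Tlr9 followed the shared macrophage markers (r = 0.661, rho = 0.643, permutation p = 1e-05 for each, q = 0.00426, 3.21% of genes). It also followed the monocyte, T cell and dendritic cell lists there (r = 0.585, 0.570 and 0.614, rho from 0.538 to 0.603, largest permutation p = 0.00011, with 3.06%, 2.18% and 3.17% of genes). Without the 2 strains farthest from the median of the marker sum, r for the 17 ran from 0.336 to 0.619. The dendritic cell sum in lung was largely Itgax, which alone had a median of 39.5 CPM there, against 55.3 for the list. Which cells carried this RNA was not tested.

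Tlr3 and Tlr5 passed with 0 lists, Tlr6 with monocytes in lung alone (r = 0.460, rho = 0.473, permutation p = 0.001 and 0.00068, q = 0.0799, 2.97% of genes) and Tlr12 with neutrophils in liver alone (r = 0.486, rho = 0.441, permutation p = 0.00047 and 0.00204, q = 0.0843, 0.784% of genes), and neither kept its call without CC015, or without CC016, CC020 and CC040, where r was 0.449 and 0.367. Tlr12 in liver was close to the threshold with the Kupffer cell and shared macrophage lists as well. There r was 0.47 and 0.465 (permutation p = 0.00086 and 0.00102, q = 0.103 for each), so its call does not single out neutrophils. Some of the lists that gave calls were near the limit of detection. In liver 0 of 6 neutrophil markers had a median of more than 3 counts, and their sum had a median of 1.11 CPM. Only 1 of 5 alveolar macrophage markers did so in liver, and 1 of 6 T cell markers in kidney, where the T cell sum had a median of 1.35 CPM. No receptor passed with the library total or the share of counts in Rn45s and Lars2.

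**Figure D5:**
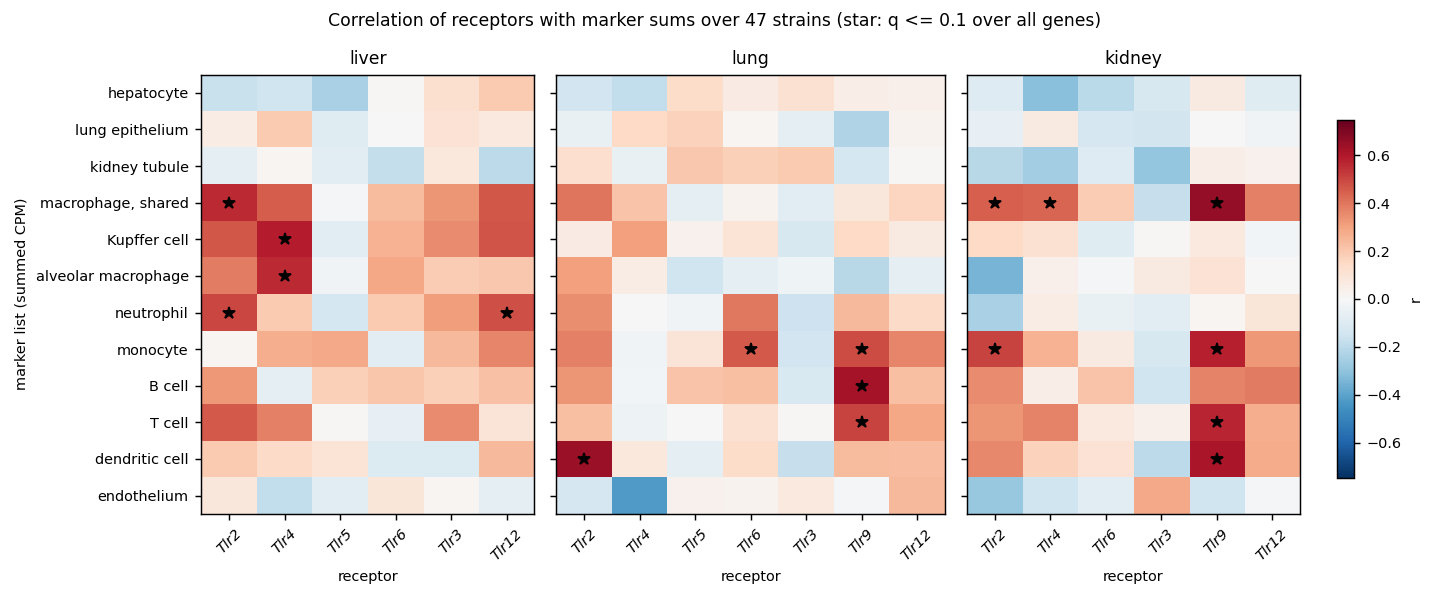
Correlation over 47 strains (colour, r) of each receptor with enough counts (columns) with the summed CPM of 12 marker lists (rows), per organ; stars mark a q of 0.1 or less over all genes. The 17 stars stand on macrophage, Kupffer cell, alveolar macrophage, neutrophil, monocyte, B cell, T cell and dendritic cell lists, and the columns of Tlr3 and Tlr5 hold 0.

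Some libraries were high in receptors and in leukocyte markers alike. The CC016 liver had the highest value of 7 members (Tlr1, Tlr2, Tlr3, Tlr4, Tlr8, Tlr9 and Tlr12) and of 6 marker lists, with 2270 CPM of shared macrophage markers against a median of 537, and 46.5 CPM of dendritic cell markers against 5.27. There Tlr4 was at 43.3 CPM and Tlr12 at 16.5, against medians of 12.3 and 1.92, while Tlr5 at 4.50 ranked 30 of 47. The CC020 kidney had the highest value of 5 members (Tlr2, Tlr4 and Tlr9, and Tlr7 and Tlr8 at 1 count each, which is under the limit of 3 counts) and of 5 leukocyte lists, and the lowest sum of tubule markers, 11600 CPM against a median of 25800. In the CC040 lung, Tlr2 and Tlr9 were highest, at 44.7 and 18.0 CPM, as were the macrophage, neutrophil, monocyte and T cell lists. Without these 3 strains, singled out after their values were seen, 9 of the 17 marker combinations kept their call, 8 lost it and 1 other passed, and every tissue call of a member remained. Those lost included Tlr2 and Tlr4 with the shared macrophage markers of kidney (r = 0.308 and 0.333) and Tlr9 with the monocyte and T cell markers of lung (r = 0.416 and 0.467).

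The genes most like each receptor across strains, in the organ of its highest median, were named by the top 3 correlations. For Tlr9 in lung these were Plcg2 (r = 0.752), Map4k1 (0.750) and Gmip (0.716) among 11695 genes, and for Tlr2 Plek (0.660), Itgax (0.646) and Trim6 (0.640). Itgax is the gene that made up most of the dendritic cell sum in lung. Tlr3 was most like Wasl (0.744), Tab2 (0.681) and Atf1 (0.653), and Tlr4 most like Lepr (0.626), Cxadr (0.622) and Pola1 (0.612). For Tlr5 they were Lss (0.619), Susd4 (0.608) and Arsj (0.443), the first of which encodes lanosterol synthase of the sterol pathway. Tlr6 gave Lst1 (0.539), Trim30a (0.536) and Tet2 (0.508), and Tlr12 in kidney H2-Eb1 (0.506), Cd52 (0.496) and Spn (0.491) among 11284 genes. As the highest of many these values are a description.

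Of the other genes of the pathway, 46 of 67 listed could be tested. Between lung and kidney 20 were higher in lung and 4 in kidney, against 24.6% and 21.7% of all genes. Between liver and lung 7 were higher in liver and 12 in lung (23.7% and 31.2% of all genes), and between liver and kidney 12 in liver and 4 in kidney (14.7% and 22.0%). Of the remaining mouse receptors, Tlr11, which pairs with Tlr12, was at 2.03 ± 1.21 CPM (mean ± SD, n = 47) in lung, 0.417 ± 0.936 in liver and 0.649 ± 0.772 in kidney, so that lung exceeded kidney (1.64 ± 0.17 SE, q = 3.9e-15) where Tlr12 went the other way. Its means in liver and kidney were under 1 CPM, so the count filter favoured a lung excess, as for Tlr9. The pathway counts above share this limit, since genes low elsewhere enter through the organ where they are high. Tlr13, a receptor of bacterial ribosomal RNA, was at 10.9 ± 6.51, 4.79 ± 3.28 and 1.82 ± 1.31 CPM in lung, liver and kidney (lung over kidney 2.55 ± 0.11, q = 1.1e-40).

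The ligand carriers and co-receptors did not share a single organ. Lbp, which delivers lipopolysaccharide, was highest in liver at 102 ± 38.9 CPM (liver minus kidney 4.93 ± 0.09, q = 2.6e-73), and Cd180 was highest in lung at 4.93 ± 2.85 (lung minus kidney 2.49 ± 0.14, q = 2.1e-32). Cd36, a partner of Tlr2 with 5 named transcripts, was at 4.96 ± 2.35 in lung, 4.93 ± 2.51 in kidney and 0.370 ± 0.388 in liver. It was lower in liver than in lung (-3.68 ± 0.16, q = 3.1e-41) and in kidney (-3.72 ± 0.16, q = 2.9e-41). Lung and kidney did not pass the test (-0.04 ± 0.14, q = 0.8). Among the factors that fold and process endosomal receptors, Unc93b1, which carries them to the endosome, was lowest in kidney (lung minus kidney 1.68 ± 0.09, q = 2.3e-35), the protease Lgmn was highest in kidney (lung minus kidney -2.92 ± 0.06, q = 7.8e-71), and the chaperone Hsp90b1 was highest in liver (liver minus lung 1.62 ± 0.05, q = 2.1e-55).

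Downstream, of 14 tested kinases and ubiquitin ligases 12 were not called between liver and lung, 12 between liver and kidney and 11 between lung and kidney, where 45.1%, 63.4% and 53.7% of all genes were not called; Ikbke was highest in liver, at 30.9 ± 10.5 CPM (liver minus kidney 2.94 ± 0.09, q = 1.7e-54). Of 4 tested adaptors Pik3ap1 was highest in liver (liver minus kidney 5.15 ± 0.12, q = 1.2e-63) and Ticam2, the adaptor specific to Tlr4, in lung (lung minus kidney 2.51 ± 0.16, q = 6.9e-29). Ticam2 averaged 0.735 CPM in liver and 0.511 in kidney, so the count filter favoured its lung excess. The transcription factors Rel and Fos were higher in lung than in kidney (2.77 ± 0.09, q = 1.7e-52, and 2.69 ± 0.11, q = 5e-43). Of the inhibitors, Irak3 was higher in lung than in liver (-2.72 ± 0.11, q = 1.6e-42) and Sigirr highest in kidney, at 41.7 ± 10.4 CPM (lung minus kidney -1.90 ± 0.07, q = 4.9e-49). Of 11 target cytokines and chemokines 4 had enough counts; Cxcl1 was highest in liver (liver minus lung 4.10 ± 0.16, q = 3.4e-44), Ccl5 in lung (liver minus lung -2.88 ± 0.19, q = 2.3e-26) and Il1b in lung (lung minus kidney 2.89 ± 0.11, q = 1.5e-46).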

How the data were processed

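Total RNA was depleted of ribosomal RNA and sequenced as single-end reads. The authors aligned reads with STAR 2.5.3a to pseudo-genomes of each strain built on mm9 and quantified genes with RSEM, keeping uniquely aligned reads. The deposited expected counts (25 gene values were not whole) were rounded and used for the tests; the deposited TPM served to order genes within an organ; the deposited FPKM was not used in any result. Genes with more than 1 CPM in 30% of libraries (12127) were fitted with limma-voom (limma 3.58.1, edgeR 4.0.16) with TMM factors and the strain as a fixed block, since the 3 libraries of a strain come from the same mouse (median correlation of their deviations 0.167 to 0.212); q is the Benjamini-Hochberg value. The paper also fitted a batch term. No sample label gives the batch, so neither the fit nor the correlations over strains were adjusted for it. The 3 members below the filter and neighbours in level were compared by sign-flip permutation (100000). Strain correlations used Blom scores and permutation, with the values adjusted over all genes. Named genes were the members, the 3 largest changes of each list and the 3 genes most alike. The members and lists were chosen with earlier results of these data known. The fits and tests were tested on simulated data. Sequences were from RefSeq and GENCODE; the promoters of Tlr4 and Tlr7 were not analysed here. Alternatives were another scaling (DESeq2 1.42.0 size factors, total counts), tool, filter, unit and set of strains.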

Additional observations from a re-analysis of the deposited data

How the results depend on the processing

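Most results kept their direction and their side of the threshold: of the alternatives run on the counts of calls, 95 stayed within 1.5 times the main count and 18 did not. The latter came mainly with total counts, with TPM, which like total counts does not correct for the share of counts in Rn45s, and with no fold minimum. Members called between liver and lung rose from 4 to 7 on log2(TPM + 0.1). They rose to 6, within 1.5 times, with no fold minimum, with total counts and on log2(TPM + 1). Between liver and kidney they rose from 3 to 7 with no fold minimum and to 5 with total counts and on log2(TPM + 0.1). Pathway genes called between liver and lung numbered 19, and 41 with no fold minimum, 34 with total counts, 30 on log2(TPM + 1) and 35 on log2(TPM + 0.1); between liver and kidney 16, and 41 and, on log2(TPM + 1), 9; between lung and kidney 24, and 43 with no fold minimum. Tlr12 liver minus lung reversed from 0.60 to -0.81 with total counts, -0.56 on log2(TPM + 1) and -1.01 on log2(TPM + 0.1), and Tlr2 liver minus kidney from 0.30 to -0.61, -0.45 and -0.60 in the same settings. Of the organ pairs in which a member's strain values correlated, 7 became 2 with total counts. Receptor pairs within an organ went from 0 to 45 of 51 with total counts, and to 1 on TMM-scaled TPM and 1 on log2(CPM + 1); marker combinations from 17 to 186 with total counts, 29 on log2(CPM + 1) and 10 (9 of the 17 and 1 other) without CC016, CC020 and CC040. A similar count could hide a change of calls. Of the 17 marker combinations, 4 lost their call on TMM-scaled TPM, where 7 others passed. With a median count over 10, where kidney Tlr9 was not tested, 4 were lost and 2 gained. Leaving out CC015 lost 4, and leaving out CC032 and CC042 lost 3. The fit with no replicate block changed no call of a member. Leaving out CC015 or CC016, CC020 and CC040 was added after seeing the data. The depth limits Tlr1, Tlr7, Tlr8, kidney Tlr5 and liver Tlr9, whose median libraries held 4 counts or fewer. It also limits kidney Tlr6 and kidney Tlr9, at medians of 7 and 6 counts.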
